A study of Homo sapiens with 20 samples.

Results

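The cytosolic small ribosomal subunit is built from 1 ribosomal RNA and a fixed set of proteins, and the genes of 32 of these proteins are described here: RPS2 to RPS29 in the numbering of the family, RPSA and FAU. They were taken by name, as 32 of the 19962 genes of the count table. No measured value entered this rule, but it was set with earlier results of these data known. By textbook position 14 of the proteins lie in the head of the subunit and 18 in its body and platform. The libraries were PAR-CLIP libraries of HCT116, a human colorectal carcinoma line, in a derivative that conditionally expresses OsTIR1 under a Tet system and that served for all groups. In PAR-CLIP, 4-thiouridine built into RNA is crosslinked to bound protein by ultraviolet light, and crosslinked positions read as T-to-C conversions. All cells received 100 µM 4-thiouridine for 15 h. The 5 conditions were PBS for 2 h, 250 µM arsenite for 2 h, DMSO for 4 h, and 5 µg/mL tunicamycin (TM) for 1 h or 4 h. Arsenite is the name in the sample titles, and the treatment protocol writes arsenate. TM for 1 h had no vehicle control of its own time and was compared with the 4 h DMSO control. Each condition had 3 anti-IGF2BP3 libraries and 1 library with control IgG. By the prefix of the library names, replicate 3 of DMSO and TM formed 1 library set with their IgG libraries. Replicates 1 and 2 of DMSO and TM formed another, and all PBS and arsenite libraries a further set. The labels do not say that the 3 came from separate cultures, so p-values measure the spread between these libraries, which may be technical.

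Small-subunit proteins line the messenger RNA channel and the decoding site, and cells make them in step with the large-subunit proteins. Their mRNAs are the classic TOP mRNAs: they begin with a C followed by a run of pyrimidines, and this 5′ terminal oligopyrimidine tract lets growth signals, through mTOR and the cap-binding repressor LARP1, switch their translation on and off together. IGF2BP3 is an oncofetal RNA-binding protein that carries RRM and KH domains and binds many mRNAs, mostly in coding sequence and 3′ untranslated regions. Tunicamycin blocks N-linked glycosylation and causes endoplasmic reticulum stress, and arsenite causes oxidative stress; both are known to lower translation initiation, and arsenite also drives mRNAs into stress granules.

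The cluster lists gave a direct view of the starts of these mRNAs. A cluster is a stack of overlapping reads with conversions, called in 1 library. The start sites of RPS27, RPSA, RPS12, RPS16 and RPS25, which had the most clusters beginning near them, are shown with those of RPS3 and RPS6 to set the recovered RNA beside the tract. Each line gives 10 bases before and 20 bases from the annotated start, from RefSeq, build GRCh38, with the pyrimidine run from the first base in capitals.
RPS27, chr1:153990752-153990781, + strand: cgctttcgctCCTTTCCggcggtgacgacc
RPSA, chr3:39406710-39406739, + strand: tgccgcctgtCTTTTCCgtgctacctgcag
RPS12, chr6:132814559-132814588, + strand: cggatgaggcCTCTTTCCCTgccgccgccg
RPS16, chr19:39435930-39435959, - strand: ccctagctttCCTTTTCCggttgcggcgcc
RPS25, chr11:119018324-119018353, - strand: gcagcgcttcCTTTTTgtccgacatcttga
RPS3, chr11:75399508-75399537, + strand: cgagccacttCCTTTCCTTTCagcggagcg
RPS6, chr9:19380217-19380246, - strand: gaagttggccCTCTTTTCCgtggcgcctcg
The runs in these 7 windows are 6 to 11 bases long. Of the 25 members with a start-site entry, 19 begin with C and at least 4 more pyrimidines at an annotated start, against 5.14% of the 27305 gene symbols in the same table. The members without such a run at any listed start were RPS4X, RPS7, RPS15, RPS26, RPS28 and RPS29.

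Clusters began within 10 bases of an annotated start in 15 members, 66 clusters and 759 reads in all over the 15 anti-IGF2BP3 libraries. Of these clusters, 54 began within 3 bases of the start. RPS27, which binds zinc in the body of the subunit, had 13 such clusters, each in a different library, with 186 reads that began from 3 bases before to 1 base after the annotated start. RPSA had 9 with 110 reads, RPS12 had 8 with 74 reads, RPS16 had 8 with 103 reads, RPS25 had 7 with 87 reads, RPS3 had 4 with 37 reads and RPS6 had 2 with 27 reads. In RPS12 the first bases lay from 1 before to 1 after the annotated start, and in RPS16 from 1 before to 10 after it. Among members with a start-site entry and at least 50 cluster reads, 14 of 19 had a cluster that began there, against 2.56% of all 4880 genes under the same rule. The large-subunit genes had it in 18 of 35, 10 other TOP genes in 6, and the 4816 genes in none of these lists in 1.81%. These are descriptions of annotated starts and were given no test. The lists were not matched for read depth above 50 cluster reads or for transcript length. Whether these alter how often a cluster begins at the start was not tested. The most frequent first base lay 1 base before the annotated start, as the plot of cluster starts shows.

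**Figure D1:**
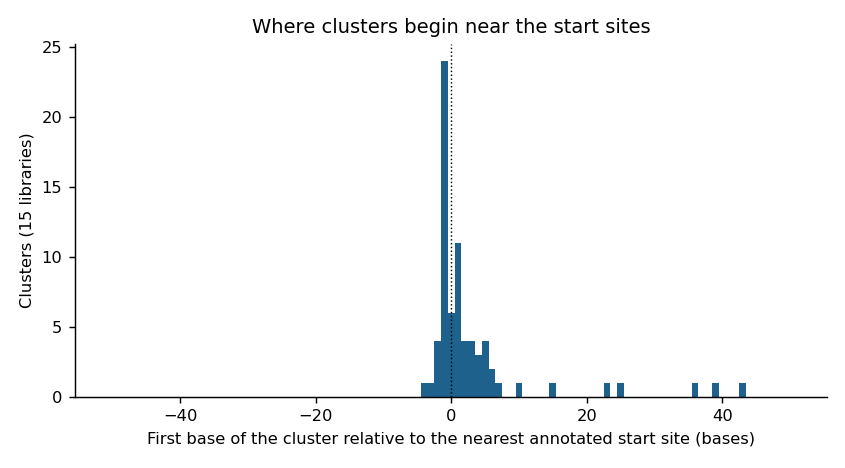
Number of clusters, over the 15 anti-IGF2BP3 libraries, by the position of their first base relative to the nearest annotated start site of a small-subunit gene (0 on the x axis, in bases). Of the 66 clusters within 10 bases, 54 lie within 3 bases of the start.

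Away from the start, the clusters of these genes formed separate blocks along the gene, as in the map of clusters along the gene spans. The anti-IGF2BP3 lists held 1266 clusters with 21078 reads in 28 of the 32 members. Overlapping clusters of different libraries merged into 196 regions, and 4 of the regions had a cluster in every one of the 15 libraries. Those in RPS23, RPSA and RPS2 are described here. RPS23 sits at the decoding site, RPS2 at the mRNA entry, and RPSA, also known as the laminin receptor, near the mRNA exit. The regions of RPSA and RPS23 are shown by 30 bases of the deepest cluster, with CATA, CATC or CATT in capitals; these letters are the DNA form of CAU and A, C or U, a core that IGF2BP proteins are known to bind. The sequences come from the deposited cluster lists, build GRCh38.
RPSA, chr3:39408590-39408619, + strand: ttctgccctcacttaggCATCtatatCATA
RPS23, chr5:82274664-82274693, - strand: gagagattgctaggcctcgctcacctggcc
The RPSA window holds 2 such cores and the window of RPS23 holds none. In RPSA the region chr3:39408584-39408700 held 933 reads, 65.4% of the gene's cluster reads. In RPS2 the region held 925 reads, 81.1% of its total. In RPS23, the member with the most clusters (165) and the most gene counts (3706), the region chr5:82274664-82275339 held 1263 reads, or 46.4%. RPS27 was the most concentrated at its start: chr1:153990759-153990794 held 87.7% of its reads. Exon boundaries were not used here, so no region is assigned to an exon.

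**Figure D2:**
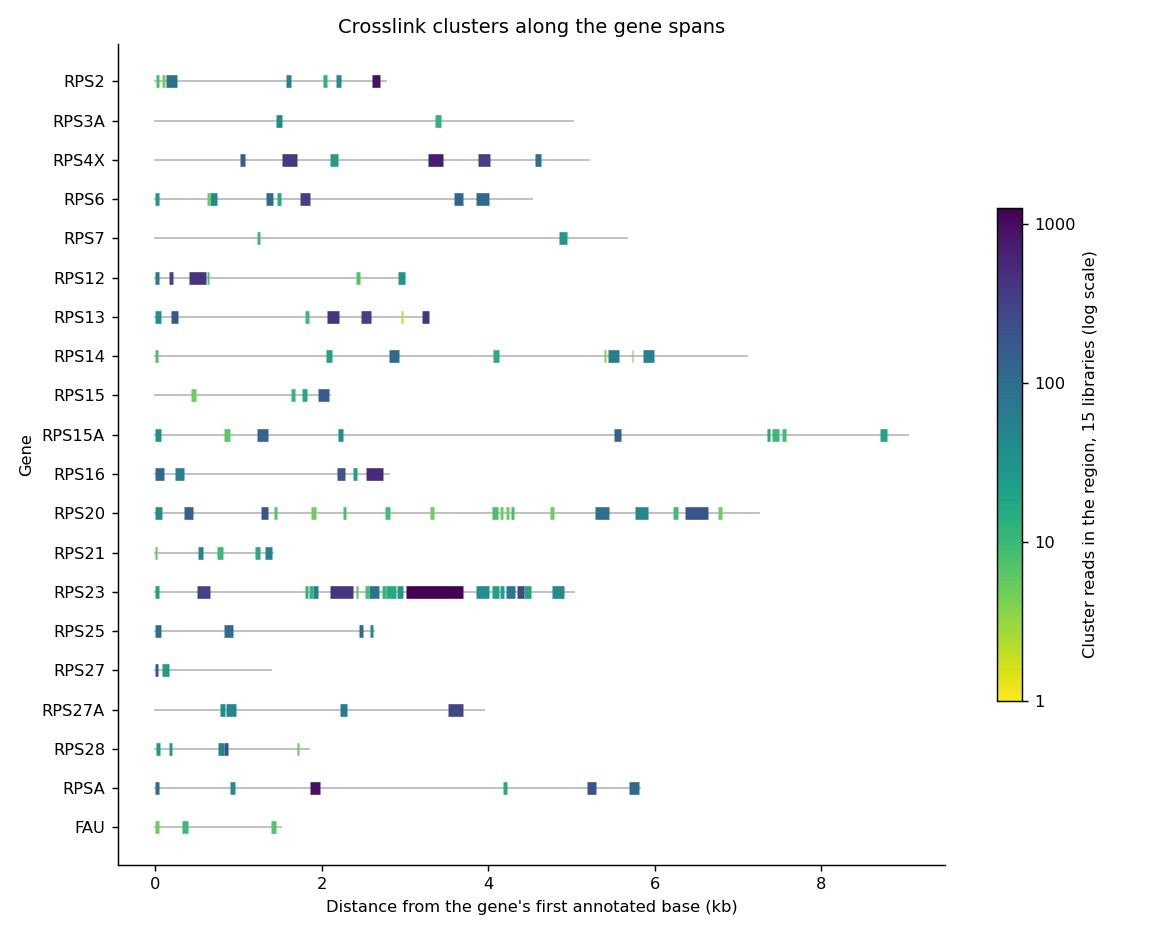
Merged cluster regions (blocks, to scale) along the annotated span (grey lines, kb from the first annotated base) of members with clusters and a span under 9.5 kb, coloured by cluster reads summed over the 15 anti-IGF2BP3 libraries on a log scale. Reads sit in separate blocks, with 1 or a few dark blocks per gene.

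Over all member clusters the CATA, CATC or CATT core was less frequent than in clusters at large. It was present on the cluster strand in 54.5% of the 1266 member clusters, while clusters of the same lengths from the whole lists held it in 63.7%. GGAC, which is the core of the m6A context that IGF2BP proteins have been linked to, was present in 16.9% of member clusters and in 13% of clusters of those lengths. The bases differed too, with 25.8% T in member clusters against 31.6% in all clusters and 22.9% G against 18%. Clusters of 1 gene in several libraries share their sequence, so these shares describe few independent sites. Over the 196 regions, taking the longest cluster of each, the shares were 57.1% for the first core, against 70% for those lengths, and 21.4% for GGAC, against 16%.

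The conversion share, conversion events as a percentage of conversion and non-conversion events in clusters, was higher in member clusters than in other clusters in 15 of 15 libraries. In PBS it was 11.1% ± 0.930 (SD, n = 3) in the members and 8.01% ± 0.0972 elsewhere. The members' share was 11.5% ± 0.187 with arsenite, 10% ± 0.169 with DMSO, 10.9% ± 0.949 with TM for 1 h and 10.7% ± 0.985 with TM for 4 h. Treated and control values overlapped in each of the comparisons with DMSO or PBS: the arsenite libraries gave 11.3% to 11.6% inside the PBS range of 10.3% to 12.1%. The share differed between genes, from 7.87% in RPSA and 8.08% in RPS23 to 15% in RPS7, the last from 3 clusters.

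Anti-IGF2BP3 libraries held 130478 (PBS replicate 2) to 1568406 (TM 4 h replicate 3) gene counts, and IgG libraries 5981 to 17503. PBS replicate 2 also had the fewest clusters, 3579, of which 11 lay in the members, so cluster values of PBS rest mainly on the other replicates. HCT116 is an epithelial line, and 6 of 7 epithelial markers had cluster reads. KRT8 had 424, EPCAM 301, KRT19 184 and CDH1 111. KRT18 had 40 in 4 libraries, VIL1 had only 5 in 1 library, and KRT20 had 0. Markers of fibroblasts and endothelium had 0 reads in 5 of 5 genes, and of 3 leukocyte genes CD68 had 15 reads in 1 library. The values are amounts of recovered RNA, so less RNA in the cell and less binding cannot be told apart.

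Taken as a group, the 32 genes held less of the library after arsenite, less after 1 h of TM and more after 4 h of TM. Their share of all gene counts was 0.315%, 0.303% and 0.316% in the PBS libraries and 0.188%, 0.185% and 0.185% with arsenite, with no overlap. DMSO libraries gave 0.287%, 0.25% and 0.244%. TM for 1 h gave 0.179%, 0.223% and 0.217%, all below DMSO. TM for 4 h gave 0.316%, 0.339% and 0.357%, all above DMSO. The mean was 0.311% ± 0.0074 (SD, n = 3) in PBS and 0.186% ± 0.00183 in arsenite libraries. DMSO libraries averaged 0.26% ± 0.0236, against 0.206% ± 0.024 after 1 h and 0.337% ± 0.0208 after 4 h of TM. The 95% exact binomial intervals of single libraries, which cover counting error only, spanned 0.274% to 0.334% in the shallowest library and 0.348% to 0.367% in the deepest.

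**Figure D3:**
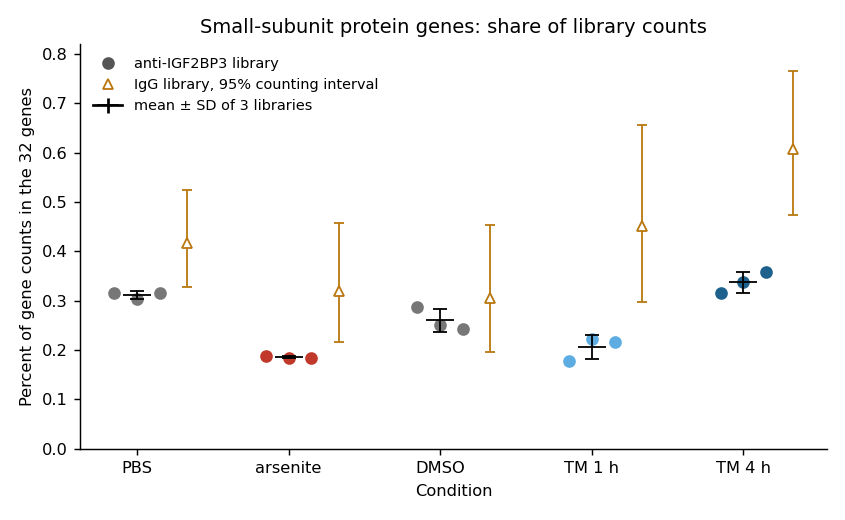
Percent of each library's gene counts that fall in the 32 genes, by condition (x axis); dots are anti-IGF2BP3 libraries, bars the mean ± SD of 3, and open triangles the single IgG library with its 95% counting interval. Arsenite libraries lie at 0.185% to 0.188% and PBS libraries at 0.303% to 0.316%, while the IgG libraries reach 0.606%.

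Arsenite was compared with PBS to see how oxidative stress changed recovery. Of 32 members, 23 had enough counts to be tested, and 19 fell while 0 rose. A call means an adjusted p (Benjamini-Hochberg) below 0.05 by the quasi-likelihood test of edgeR. Among all 6642 genes tested 17.1% fell. The log2 fold change was negative in 23 of 23 members, from -1.39 to -0.31 with a median of -0.83, against a median of 0.00 over all genes. In 21 of 23 every arsenite library lay below every PBS library, which held for 21% of all genes. Of the tested members, 18 were above the filter's minimum in every library; RPS19, RPS21, RPS27, RPS27A and RPS28 were under it in at least 1 library. By position, 9 of 10 tested head proteins and 10 of 13 tested body proteins fell; the difference between them was not tested.

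The 5 members with the largest called falls are given first; RPS28 and RPS27A among them were under the filter's minimum in at least 1 library. RPS28 (ENSG00000233927), at the mRNA exit, had 60.9, 71.5 and 61.1 CPM (counts scaled to library size) with PBS and 17.8, 21.8 and 27.3 with arsenite. It fell by 1.39 ± 0.31 (SE) on the log2 scale (adjusted p = 0.000146). RPS3 (ENSG00000149273), which lines the mRNA entry and also acts in DNA repair, had 107, 79.5 and 107 CPM with PBS against 35.5, 31.8 and 47.2. Its fall was 1.35 ± 0.24 (adjusted p = 1.82e-06). RPS27A (ENSG00000143947), made as a fusion with ubiquitin, fell by 1.23 ± 0.28 (adjusted p = 0.000217), from 63.4, 63.6 and 84.1 CPM to 27.9, 23.4 and 35.8. RPS12 (ENSG00000112306), in the beak of the head, fell by 1.18 ± 0.21 (adjusted p = 1.88e-06), from 127, 135 and 120 CPM to 55.8, 50.2 and 57.5. RPS20 (ENSG00000008988) fell by 1.11 ± 0.17 (adjusted p = 3.42e-08), from 210, 278 and 163 CPM to 117, 80.4 and 89.6. In all 5 genes the 2 groups did not overlap.

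Other well-known members ranged from a clear fall to values that missed the threshold. RPSA (ENSG00000168028) had 215, 151 and 194 CPM with PBS and 96.4, 124 and 114 with arsenite, a fall by 0.79 ± 0.16 (adjusted p = 3.48e-05). RPS2 (ENSG00000140988) went from 166, 207 and 186 CPM to 114, 107 and 101, a fall by 0.77 ± 0.17 (adjusted p = 0.000102). RPS23 (ENSG00000186468) fell by 0.54 ± 0.11 (adjusted p = 3.54e-05), from 405, 437 and 397 CPM to 307, 293 and 257. RPS6 (ENSG00000137154), the subunit protein phosphorylated by S6 kinases, had a log2 fold change of -0.36 ± 0.21 (adjusted p = 0.183), although its arsenite values of 58.4, 80.4 and 79.2 CPM lay below the PBS values of 95.1, 87.4 and 102. RPS19 (ENSG00000105372), mutated in Diamond-Blackfan anaemia, had -0.61 ± 0.33 (adjusted p = 0.142), with 41.4, 31.8 and 51 CPM against 30.5, 21.8 and 32.1, which overlap. RPS27 (-0.83, adjusted p = 0.054) also missed the threshold. Of the 19 calls, 14 kept an adjusted p under 0.05 in each of their alternative fits.

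**Figure D4:**
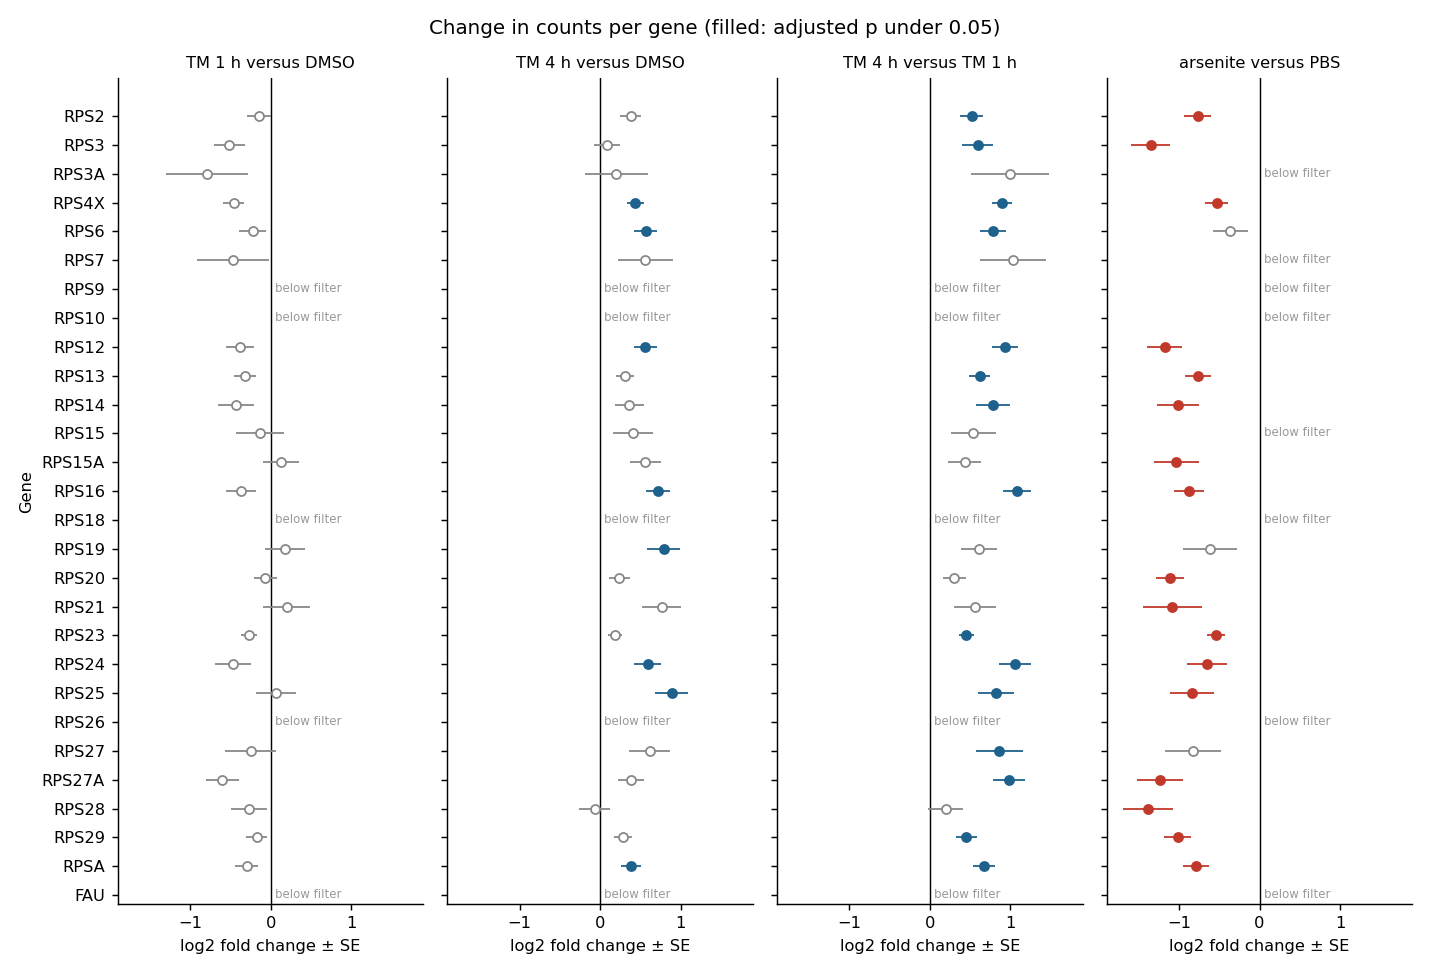
log2 fold change ± SE (x axis) of 28 of the 32 members (rows) in 4 comparisons (panels), from edgeR; filled points have an adjusted p under 0.05, red for lower and blue for higher, and genes too low to be tested are marked. In the arsenite panel every point drawn lies left of 0, and in the panel of TM 4 h against DMSO every point but that of RPS28 lies right of it.

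After 4 h of TM the direction was the opposite. Of 26 members tested, 11 rose against DMSO (edgeR, adjusted p under 0.05) and 0 fell, where 2.79% of 8343 genes rose and 2.31% fell. The log2 fold change was positive in 25 of 26, with a median of 0.48 against 0.00 over all genes. Of the tested members, 24 were above the filter's minimum in every library of this fit. RPS3A (0.20) and RPS7 (0.56), counted as positive, were under it in at least 1 library. In 15 members every TM library lay above every DMSO library, as in 10.6% of all genes. By position 5 of 11 head proteins and 6 of 15 body proteins rose. The count of 11 depended on single libraries: it was 3 without TM 4 h replicate 3, 4 without DMSO replicate 3 and 6 without DMSO replicate 2, and DESeq2 called 2. Over all genes, in either direction, these fits called 247 of 7976, 178 of 8017, 285 of 8000 and 151 of 8343. In no alternative fit were more than 3 members negative.

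RPS25 (ENSG00000118181), a head protein needed by several viral internal ribosome entry sites, rose by 0.89 ± 0.20 (SE, log2; adjusted p = 0.00274), from 52.1, 37.3 and 35.4 CPM to 76.4, 60.4 and 77.9. RPS19 rose by 0.79 ± 0.21 (adjusted p = 0.0118), from 35.7, 33.1 and 37.8 CPM to 53.9, 57.7 and 67.6. RPS16 (ENSG00000105193), whose tail reaches the decoding site, rose by 0.72 ± 0.15 (adjusted p = 0.00066), from 121, 107 and 89.3 CPM to 144, 170 and 176. Of the 11 calls, 1 held in all 17 alternative fits. RPS6 rose by 0.56 ± 0.14 (adjusted p = 0.00574), from 98.8, 88.5 and 103 CPM to 135, 137 and 152.

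For other members the evidence at 4 h was weaker. RPSA rose by 0.38 ± 0.12 (adjusted p = 0.0481), from 154, 166 and 163 CPM to 173, 241 and 211, and lost its call in 11 of 17 alternative fits. RPS2 had 0.38 ± 0.13 (adjusted p = 0.078), with 154, 126 and 124 CPM against 135, 188 and 173. RPS27A had 0.38 ± 0.16 (adjusted p = 0.193), although 74.1, 60.8 and 68.4 CPM with DMSO lay below 83.2, 88.5 and 87.6 with TM. RPS3 had 0.08 ± 0.16 (adjusted p = 0.863): its TM libraries gave 53.9, 99.2 and 107 CPM around DMSO values of 90.5, 88.5 and 87.7. RPS28 was the only tested member with a negative value, -0.07 ± 0.19 (adjusted p = 0.908).

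At 1 h of TM no member passed the test. edgeR called 0 of 26 at an adjusted p under 0.05 and DESeq2 0, with 8 at an unadjusted p under 0.05. Among all genes 0.144% rose and 0.408% fell. The log2 fold change was negative in 22 of 26 members, with a median of -0.26 against 0.00 over all genes. These include RPS3A (-0.79) and RPS7 (-0.47), which were under the filter's minimum in at least 1 library. In 8 members every TM library lay below every DMSO library, which 7.7% of all genes did. RPS27A was one of them, with 41.6, 46.6 and 43.2 CPM against 74.1, 60.8 and 68.4 and a log2 fold change of -0.60 ± 0.21 (adjusted p = 0.246). RPS3 was another, with 55.5, 68.8 and 60.4 CPM against 90.5, 88.5 and 87.7 (-0.51 ± 0.19, adjusted p = 0.317). RPS4X (ENSG00000198034), the X-linked copy of its gene, came closest to the threshold: its 3 TM libraries, at 125 to 151 CPM, stood against 222, 189 and 188 (-0.46 ± 0.13, adjusted p = 0.102). RPSA (-0.30, adjusted p = 0.487), RPS6 (-0.22, adjusted p = 0.735), RPS2 (-0.14, adjusted p = 0.837) and RPS19 (0.17, adjusted p = 0.889) were further from it.

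The TM times were also set against each other. Comparing 4 h with 1 h, 18 of 26 members rose (edgeR, adjusted p under 0.05) and 26 of 26 were positive, with a median log2 fold change of 0.76; 5.6% of all genes rose. In 18 members the groups did not overlap, as in 14.1% of all genes. This comparison shares its libraries with the other TM comparisons. The positive members include RPS3A (0.99) and RPS7 (1.03), which were under the filter's minimum in at least 1 library and were not called. RPS16 rose by 1.08 ± 0.17 (adjusted p = 2.27e-06), from 69.4, 44.4 and 98.8 CPM. RPS24 (ENSG00000138326), a body protein also mutated in Diamond-Blackfan anaemia, rose by 1.06 ± 0.20 (adjusted p = 0.000103), from 18.5, 68.8 and 48.9 CPM to 92.2, 117 and 102. RPS27A rose by 0.98 ± 0.20 (adjusted p = 0.000231) and RPS12 by 0.93 ± 0.16 (adjusted p = 1.92e-05), from 46.3, 88.8 and 83.4 CPM to a mean of 150.1 ± 8.43 (SD, n = 3). RPS4X rose by 0.89 ± 0.12 (adjusted p = 1.38e-07), to 247, 276 and 265 CPM. RPS6 (0.78, adjusted p = 0.000227), RPSA (0.68, adjusted p = 0.000219), RPS3 (0.59, adjusted p = 0.0287) and RPS2 (0.52, adjusted p = 0.0104) rose too, while RPS19 had 0.61 (adjusted p = 0.0645). Within the library set that holds replicates 1 and 2, 9 of 24 members tested were called, as were 488 of all 7097 genes, in either direction.

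**Figure D5:**
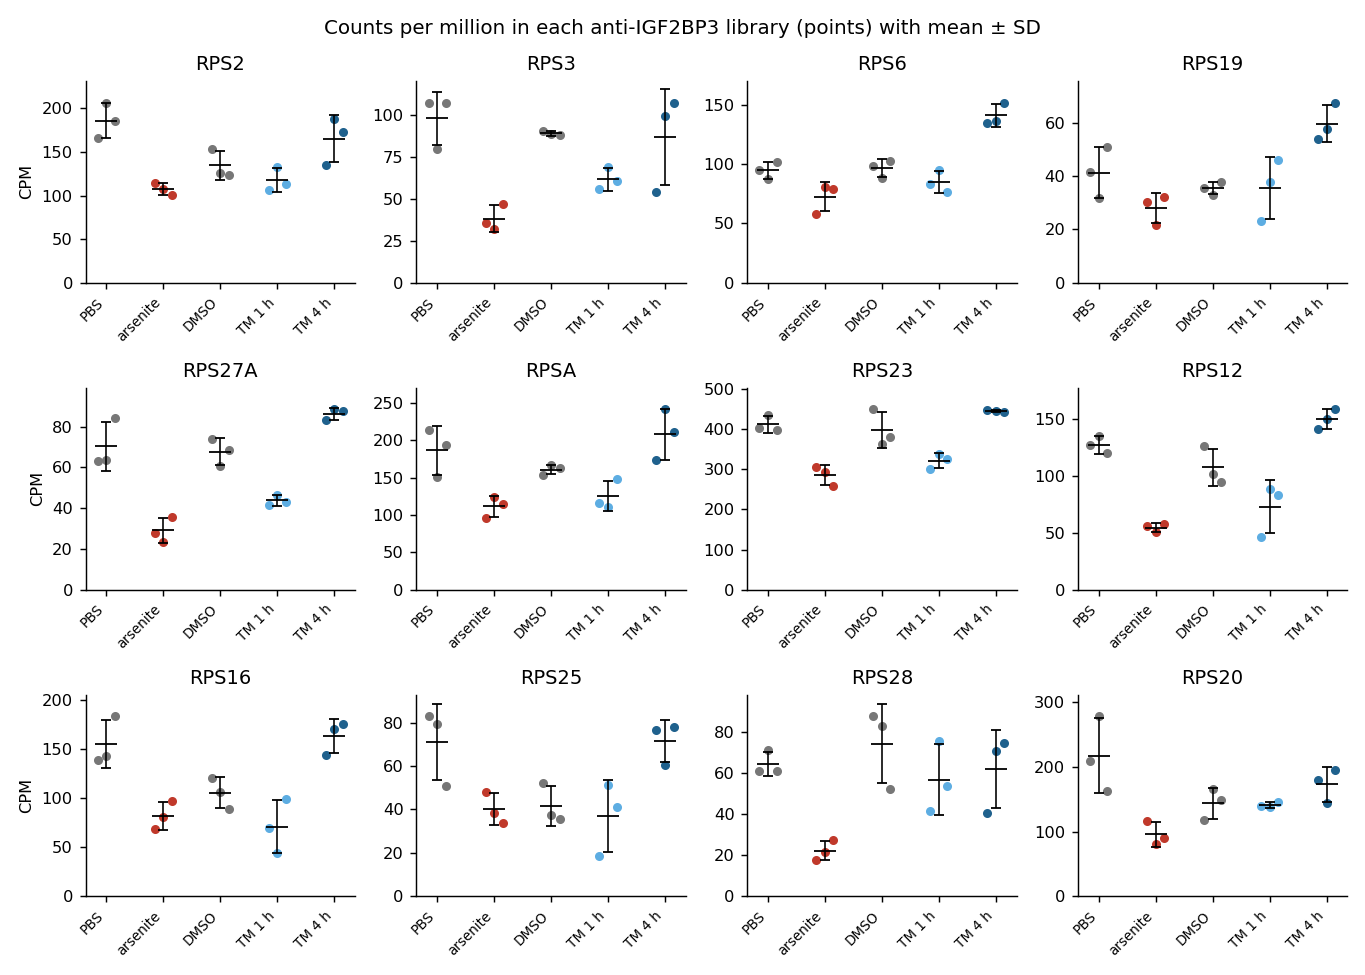
CPM of 12 members in each anti-IGF2BP3 library (points) with the mean ± SD of 3 libraries (bars), by condition. RPS27A and RPS12 are low with arsenite and with TM for 1 h and high with TM for 4 h, while RPS28 is low with arsenite and overlaps between the DMSO and TM groups.

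The arsenite effect and the TM 4 h effect were compared directly by an interaction term over their 12 libraries. Of 25 members tested, 23 differed (edgeR, adjusted p under 0.05), each with the arsenite effect below the TM effect, where 9.74% of 7796 genes differed in that direction. The median difference was -1.36 on the log2 scale, against -0.02 over all genes. Among the members called, the differences were widest for RPS21 (-1.86 ± 0.42, adjusted p = 0.000637), RPS12 (-1.75 ± 0.24, adjusted p = 4.26e-08), RPS25 (-1.74 ± 0.33, adjusted p = 5.95e-05), RPS27A (-1.62 ± 0.31, adjusted p = 6.38e-05) and RPS16 (-1.60 ± 0.23, adjusted p = 8.42e-08). RPS21 CPM went from 41.4, 47.7 and 43.3 with PBS to 35.5, 15.1 and 17 with arsenite and stood at 30.2, 26.7 and 27.4 with DMSO and 47.2, 41.6 and 50.2 with TM for 4 h. RPS25 had 82.9, 79.5 and 51 CPM with PBS and 48.2, 38.5 and 34 with arsenite. RPS16 had 139 to 183 CPM in the 3 PBS libraries and 68.5, 80.4 and 97.1 with arsenite. RPS12 had 126, 101 and 95 with DMSO. RPS3 (-1.44), RPS19 (-1.41), RPSA (-1.17), RPS2 (-1.15) and RPS6 (-0.93) also passed, and RPS7 (-1.69, adjusted p = 0.0764) and RPS15 (-1.17, adjusted p = 0.0569) did not. The count stayed between 22 and 24 when any 1 library was left out, while 1052 to 1377 of all genes were called in either direction. The 2 stresses differ in compound, time and library set, and these cannot be told apart.

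No member was called higher with anti-IGF2BP3 than with IgG at gene level, with 5 IgG libraries of few counts. With library totals as scaling, 24 members were tested over all 20 libraries with condition as covariate, 0 were higher with anti-IGF2BP3 and 2 lower (edgeR, adjusted p under 0.05), where 0.0854% of 7022 genes were higher and 1.22% lower. RPS15 was lower by a log2 difference of -2.48 ± 0.65 (adjusted p = 0.0172) and RPS2 by -1.62 ± 0.38 (adjusted p = 0.00314). RPS2 had 13, 6, 1, 2 and 1 counts in the IgG libraries and RPS15 had 9 in all. Without the IgG library of PBS, or that of arsenite, 0 members were called. Over all genes those fits called 80 of 7230 and 70 of 7251. The members' share was 0.417% in IgG of PBS, 0.32% of arsenite, 0.305% of DMSO, 0.451% of TM 1 h and 0.606% of TM 4 h, each above its anti-IGF2BP3 mean. Scaling by TMM moved the median of all genes from 0.09 to 0.71, and members' negative values from 20 of 24 to 13 of 24. RPS3 (-1.42, adjusted p = 0.249), RPS19 (-1.70, adjusted p = 0.311), RPS27A (-1.14, adjusted p = 0.556), RPS6 (-0.68, adjusted p = 0.729) and RPSA (0.28, adjusted p = 0.927) did not pass. Clusters gave another view: 0 of the 440 IgG clusters lay in a member, which allows a share of up to 0.682%, and members held 0.307% of anti-IGF2BP3 clusters, so the depth of the IgG lists could not show a difference.

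Several members had too few counts for any test. RPS18, a head protein, had 0 counts in all 15 anti-IGF2BP3 libraries, RPS9 had 3, RPS26 had 14 and RPS10 had 19, and these 4 genes had no cluster. FAU (ENSG00000149806), which encodes the subunit protein S30 fused to a ubiquitin-like domain, had 84 counts and 3 clusters. Its values were 7.31, 7.95 and 7.64 CPM with PBS, 10.2, 8.37 and 6.6 with arsenite, 2.74, 6.4 and 7.24 with DMSO, 4.63, 8.88 and 5.75 with TM for 1 h and 8.99, 12.1 and 13.5 with TM for 4 h. PBS and arsenite values of FAU overlapped, at 1 to 7 counts per library. RPS3A and RPS7, with 112 and 146 counts, were not tested for arsenite and did not pass in any TM comparison. How reads shared with processed pseudogenes, of which these genes have many, were counted is not given in the sources used here, so levels of single members, and above all the near-empty ones, are uncertain.

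Cluster reads also placed the members beside other genes of the pathway, which the gene counts could not since no table pairs those names with the identifiers. Values are the log2 ratio of mean cluster RPM plus 1, for genes with at least 50 reads in the comparison, with no test. After 4 h of TM against DMSO, 24 of 25 small-subunit genes were higher with a median of 0.63, 42 of 44 large-subunit genes with 0.48 and 14 of 14 other TOP genes with 0.31. Genes of small-subunit assembly factors were higher in 7 of 13, those of TOP mRNA regulators in 6 of 9 and those of the mitochondrial small subunit in 8 of 13, and all 5323 genes had a median of 0.01. In 11 small-subunit genes TM and DMSO libraries did not overlap, as in 6.41% of all genes. After 1 h, 21 of 23 small-subunit and 36 of 38 large-subunit genes were lower, with medians of -0.75 and -0.59, against -0.25 over all genes, and 4 small-subunit genes did not overlap (6.36% of all genes). From 1 h to 4 h, 25 of 25 were higher and 17 did not overlap (11.5% of all genes). TM 1 h replicate 1 had clusters in only 7 members. Genes without a cluster there counted as 0 RPM, which lowers the 1 h means. With arsenite, 16 of 20 small-subunit genes were lower with a median of -0.69, 26 of 35 large-subunit genes with -0.42 and 11 of 13 other TOP genes with -0.62, whereas all genes had a median of 0.45 and assembly factors 0.32. Here 6 small-subunit genes did not overlap, and 11.8% of all genes were lower without overlap. PBS replicate 2 had only 3579 clusters, in 10 members, and a gene without a cluster there counted as 0 RPM. Such a gene cannot be lower without overlap: RPS4X had 372, 0 and 314 RPM with PBS and 197, 193 and 175 with arsenite. Values of 0 also lower the PBS means, so the arsenite medians, that of all genes included, and these counts depend on depth. RACK1, the signalling scaffold on the head that is not among the 32, had 638, 609 and 723 RPM with PBS and 656, 663 and 481 with arsenite, which overlap. With DMSO it had 405, 356 and 332 RPM. With TM for 1 h it had 147, 320 and 270, all below DMSO, and with TM for 4 h 778, 754 and 607, all above DMSO.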

How the data were processed

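The authors deposited whole-number read counts per gene for 20 libraries and 1 cluster list per library, with positions, sequences, read counts and conversion event counts per the file headers. The submitters' processing notes name bcl2fastq 2.20.0.422, UMI-tools 1.1.1, Trimmomatic 0.30, Bowtie 0.12.7, featureCounts 2.0.1 and GRCh38.p13 (hg38), with no settings. Every listed cluster has at least 2 reads and 2 conversion locations. The labels give more than 1 RNase concentration without saying which library received which. For IgG, the PBS list is named as arsenite and the arsenite list as PBS; each was used under the sample GEO records for it. All count columns were mapped by name, with 0 left over.

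Counts were tested with edgeR 4.0.16 (filterByExpr, TMM, two-sided quasi-likelihood test, Benjamini-Hochberg adjustment over all genes tested, threshold 0.05); limma 3.58.1 was loaded with it and DESeq2 1.42.0 was an alternative. The 9 TM and DMSO libraries shared 1 fit, the 6 arsenite and PBS libraries another, 12 the difference between stresses. The SE is the log2 fold change divided by the square root of F. CPM per library use TMM factors over the 15 anti-IGF2BP3 libraries. CPM are not per length, so members are not ranked by level. The scripts were tested on simulated data.

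No deposited table pairs Ensembl identifiers with symbols, so symbols of the 32 rows are Ensembl's own; gene counts follow cluster reads at the RefSeq locus for all but 1 member. Clusters were assigned to RefSeq spans (any overlap) on the strand of the start-site table (25 members) or the strand with most cluster reads (7 members). All 1157 clusters inside RefSeq start-site windows matched their letters at the same position. Start-site sequences were used for 25 members. Same-numbered libraries were not modelled as pairs. Their deviations correlated between -0.12 and 0.09, which cannot exclude pairing. The highest value, for replicate 3 of DMSO and TM 1 h, stood against at most -0.012 for other numbers. The main TM fits had no term for library set. With the set as a block, 0, 10 and 18 members were called for TM 1 h, TM 4 h and 4 h against 1 h. Over all 8343 genes these fits called 42, 394 and 925. The named genes are the 5 members per direction with the largest change among those called, and RPS2, RPS3, RPS6, RPS19, RPS27A, RPSA and FAU throughout. Some members and sequences are not reported here by name, though counts over the members include them. Members and lists were chosen with earlier results of these data known.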

Additional observations from a re-analysis of the deposited data

Results flagged for a closer look

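The effect of arsenite and that of 4 h of TM differed for 23 members by the interaction term (edgeR, adjusted p under 0.05), and this test of the difference is why the members below are listed. The values are the arsenite log2 fold change minus the TM 4 h log2 fold change. They were RPS2 -1.15, RPS3 -1.44, RPS4X -0.98 and RPS6 -0.93. Next came RPS12 -1.75, RPS13 -1.08, RPS14 -1.39, RPS15A -1.60 and RPS16 -1.60. Further values were RPS19 -1.41, RPS20 -1.36, RPS21 -1.86, RPS23 -0.73, RPS24 -1.25 and RPS25 -1.74. The remaining values were RPS27 -1.45, RPS27A -1.62, RPS28 -1.32, RPS29 -1.31 and RPSA -1.17. All 23 are negative, and the arsenite and TM libraries also differ in time and library set, which cannot be told apart from the compound.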

How the results depend on the processing

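Of 145 recomputed counts and shares, 133 stayed within 1.5 times the reported count or within 1 SD of the reported share. A reversal of sign could be scored only for the members' share of library counts, where 0 reversed. Counts of members called have no sign, and the conversion differences were under 1 SD. The count of members that rose with TM for 4 h against DMSO was the least stable: DESeq2 called 2, the library set of replicates 1 and 2 alone called 1, and leaving out 1 library gave 3 to 12. Over all genes, in either direction, that set alone called 129 of 7097, and leaving out 1 library gave 178 to 431. Within the same set, TM 4 h against TM 1 h gave 9, and leaving out 1 library 13 to 18. Over all genes these values were 488 of 7097 and 523 to 859. With a mean count of at least 50, which tests fewer members, 1 of 18 was called for TM 1 h, 9 of 10 for arsenite, 15 of 15 for the difference between stresses and 1 of 12 for IgG; over all genes under that filter, 42 of 3746, 1380 of 2627, 1142 of 3462 and 27 of 2648 were called, in either direction. Leaving out 1 library gave 14 to 19 for arsenite, 22 to 24 for the difference and 0 to 2 for IgG. Over all genes it gave 1714 to 2392, 1052 to 1377 and 67 to 81. With the replicate block the counts were 0, 10, 17, 17 and 23 for TM 1 h, TM 4 h, TM 4 h against 1 h, arsenite and the difference, so the block changed no count by over 1.5 times. Over all genes the same fits called 43, 371, 902, 2111 and 1247. Over all genes, DESeq2 called 6 where edgeR called 46 for TM 1 h, 151 against 426 for TM 4 h, 502 against 967 for TM 4 h against 1 h, 1233 against 2310 for arsenite, 854 against 1427 for the difference and 178 against 92 for IgG, where TMM factors gave 582. The cause of these changes was not tested. RPS9, RPS10, RPS18, RPS26 and FAU had few or no counts and were tested in no comparison. Why their counts were low was not tested.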
